A study of Mus musculus with 15 samples.

Results

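The RNA response of wild-type (WT) bone marrow-derived macrophages (BMDM) to 1 h of lipopolysaccharide (LPS) was examined against resting WT BMDM. These 2 groups hold 6 of the 15 libraries of the series, 3 in each group, taken by the genotype and the time in their labels. The tested cells were WT BMDM given 10 ng/ml LPS from Escherichia coli 0111:B4 for 1 h, and their reference was untreated WT BMDM. Resting Nelfb KO BMDM served as another resting reference, and WT BMDM after 0.5 h of LPS stand beside the 1 h values. All cells were grown for 5 days from the marrow of C57BL/6 mice in DMEM with 10% FBS and 10% L929 supernatant, which supplies macrophage colony-stimulating factor. The KO cells were Nelfb fl/fl with Lyz2Cre, a Cre expressed in myeloid cells, and the study's legends name Lyz2Cre mice as WT, so WT and KO cells share the Cre. The labels do not say whether the 3 libraries of a group came from separate animals, whereas the study's methods call them biological replicates.

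LPS is sensed by the receptor TLR4 with its co-receptor CD14. Through the adaptors MyD88 and TRIF the signal reaches the transcription factors NF-kB, AP-1 and IRF3, and genes that need no new protein are transcribed within minutes to an hour. Many of these early genes carry RNA polymerase that is paused just after the start site. The negative elongation factor NELF, of which Nelfb encodes a subunit, holds that pause.

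The table holds 1 FPKM per gene and group (fragments per kilobase of transcript, scaled to the mapped fragments of the library), averaged by the authors over the 3 libraries. No SD, interval or test is therefore given for any value below, and no difference was compared with the spread between libraries. Ratios are those of FPKM + 1, on the log2 scale unless named a fold. A gene is called higher or lower at 1 h where this ratio reached 1.5 or fell to 1/1.5, so both words stand for a size and not for a test. The table lists 23996 genes, of which the 11258 that averaged 0.5 FPKM or more across the 5 groups are called kept genes. FPKM summed to 568505 at 1 h and 615071 at rest in WT, with 34.3% and 38.1% of it in the 100 genes of highest level. Fragment numbers per library were not analysed here, so the depth behind each value is unknown.

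The macrophage label held: all 8 macrophage markers of the table were at 1 FPKM or more, with a summed level of 4921 FPKM at 1 h and 4071 FPKM in resting WT. Emr1, which encodes the F4/80 antigen, was at 1368 FPKM at 1 h and 1209 FPKM at rest, and Cd68 at 1197 and 1357 FPKM. No marker of T cells, mast cells or erythroid cells reached 1 FPKM at 1 h or at rest, and the mast cell protease genes Mcpt4 and Tpsb2 were at 0 in both. The 7 neutrophil markers summed to 81.3 FPKM at 1 h and 100.4 FPKM at rest, nearly all of it S100a8 (79.0 and 98.8 FPKM), and the 5 fibroblast markers summed to 16.9 and 13.8 FPKM. The 5 B cell markers summed to 15.5 FPKM at 1 h and 23.6 FPKM at rest, led by Cd79b, and the 5 dendritic cell markers to 1.89 and 1.28 FPKM. In these bulk samples fewer cells of a type and less RNA per cell cannot be told apart. As a check of the labels, Nelfb had 5.65 FPKM in resting Nelfb KO, against 21.9 FPKM in resting WT, and 17.5 FPKM after 1 h of LPS.

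After 1 h of LPS 520 genes were higher (4.62% of the kept genes) and 751 were lower (6.67%) than in resting WT. Which direction held more genes depended on the limit: at 2-fold 300 were higher and 104 lower, at limits of 1.4 and 0.6 these were 705 and 362, and with the trend over transcript length removed 488 and 393. The rises were far larger than the falls. Among genes above 0 in both groups, 47 were higher by 8-fold or more, whereas only 3 were lower by 4-fold or more, Id1, 2810008D09Rik and Rplp2-ps1, a pseudogene that can share reads with its parent. The median log2 ratio over all kept genes was -0.02. Against resting Nelfb KO, 684 genes were higher at 1 h (6.08%) and 291 were lower (2.58%). Both comparisons share the 1 h group, and the one with KO cells also holds the difference in genotype. Past the limit against both resting groups were 390 of the rises (3.46% of the kept genes) and 146 of the falls (1.30%). Thus 75.0% of the rises, but 19.4% of the falls, were also found against the other resting reference. Just past the upper limit stood Eea1 (20.9 FPKM at 1 h and 13.6 FPKM at rest) and just short of it Kpna3 (32.5 and 21.3 FPKM). At the lower limit stood Pole3 (19.8 FPKM at 1 h and 30.2 FPKM at rest), and Tmem186 (2.31 and 3.97 FPKM) just missed it. The kept gene with the lowest mean was Spa17 at 0.5005 FPKM, and the highest left out was Lrrc1 at 0.499 FPKM.

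**Figure D1:**
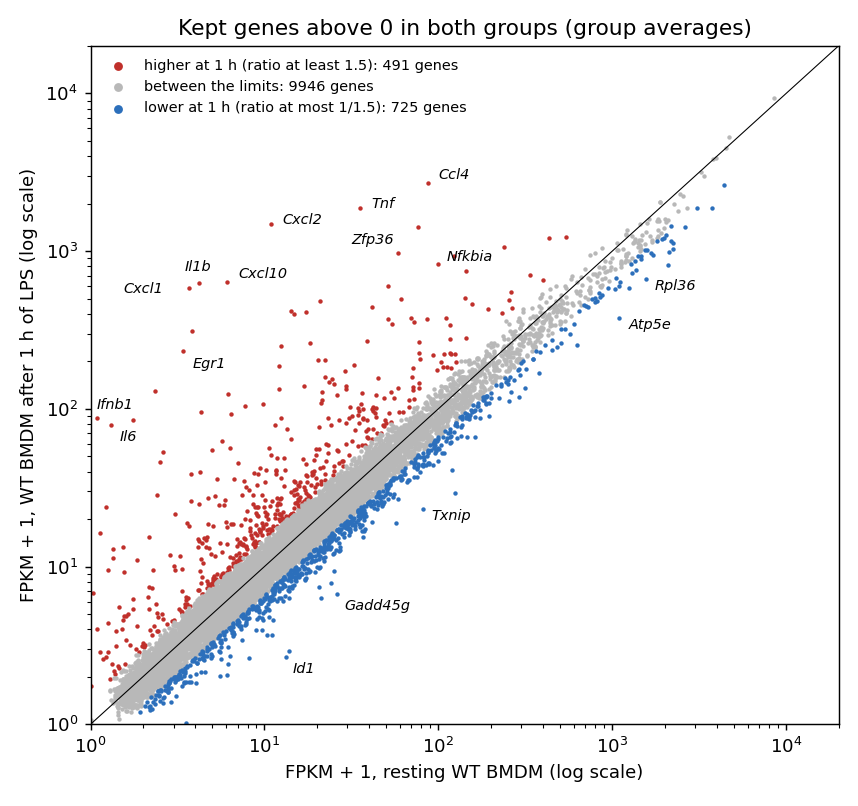
FPKM + 1 of each kept gene in WT BMDM after 1 h of LPS (vertical axis) against resting WT BMDM (horizontal axis), both on log scales, with 1 point per gene above 0 in both groups and the line of equal values. The 491 higher genes spread far above the line, with Cxcl1, Il1b and Cxcl2 the farthest, whereas the 725 lower genes form a band just under it.

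The promoters of the strongest rises of messenger RNA are shown because NF-kB is the factor best known for activating them. The kB motif was written as GGGANNTTC and searched on both strands from 250 bases before to 50 bases after the start, in the RefSeq promoter table for GRCm38.p6. Among the 20 largest rises of any gene, the 3 below had a match; each sequence gives the 250 bases before the start, 5′ to 3′ on the gene's strand, with the match in capitals. Cxcl1 lies at chr5:90890995-90891244 (+ strand), Cxcl2 at chr5:90903649-90903898 (+ strand) and Cxcl10 at chr5:92348890-92349139 (- strand) for these windows.
Cxcl1: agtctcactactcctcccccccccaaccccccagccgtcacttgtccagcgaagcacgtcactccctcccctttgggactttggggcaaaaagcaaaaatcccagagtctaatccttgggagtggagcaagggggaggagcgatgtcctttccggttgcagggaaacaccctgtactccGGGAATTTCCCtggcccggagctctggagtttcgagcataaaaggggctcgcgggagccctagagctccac
Cxcl2: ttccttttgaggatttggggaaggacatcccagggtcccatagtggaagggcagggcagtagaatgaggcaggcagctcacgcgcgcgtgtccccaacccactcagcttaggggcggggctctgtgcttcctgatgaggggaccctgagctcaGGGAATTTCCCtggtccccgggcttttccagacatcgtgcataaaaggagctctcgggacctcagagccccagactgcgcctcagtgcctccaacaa
Cxcl10: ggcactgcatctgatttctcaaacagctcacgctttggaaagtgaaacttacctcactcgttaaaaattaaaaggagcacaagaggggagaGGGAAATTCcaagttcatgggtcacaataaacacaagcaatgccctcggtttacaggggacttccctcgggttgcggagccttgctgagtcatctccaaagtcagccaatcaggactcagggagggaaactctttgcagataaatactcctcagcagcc
Cxcl1 and Cxcl2 had the same letters in capitals, which hold 2 overlapping matches on opposite strands, the first at 71 bases before the start in Cxcl1 and at 97 bases in Cxcl2. The match of Cxcl10 began 159 bases before its start.

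Over the genes with a promoter in that table (8838 of the kept genes), the kB motif was found in 9 of 32 genes higher by 8-fold or more (28.1%), in 5.48% of all higher genes and in 3.80% of all kept genes. The AP-1 motif TGANTCA, searched on both strands, was found in 15.6%, 8.88% and 4.87% of the same 3 classes. TATAAA on the gene's strand was found in 21.9%, 10.7% and 4.30%, the CRE motif TGACGTCA (both strands) in 9.38%, 3.92% and 3.42%, and the CArG box (both strands), the site of serum response factor, in 6.25%, 1.83% and 1.36%. Among genes lower against both resting groups the kB motif stood in 4.95%, the AP-1 motif in 1.98%, TATAAA in 8.91%, the CRE motif in 4.95% and the CArG box in 0.990%. A CArG box can hold TATAAA within it, so the shares of these motifs can overlap. A match is not a binding site, and the shares carry no test. The genes higher by 8-fold or more were compact, with a median span of 5.13 kb, 4 exons and a longest transcript of 1990 nt, against 22.1 kb, 9 exons and 2988.5 nt over all kept genes.

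Chemokine genes, whose products draw neutrophils and monocytes, held several of the largest rises among messenger RNAs. Cxcl1, a neutrophil attractant, was at 583 FPKM at 1 h and 2.67 FPKM in resting WT (159-fold, log2 ratio 7.31). Its neighbour Cxcl2, a ligand of the same receptor, was at 1487 FPKM at 1 h and 9.93 FPKM at rest (7.09). Both started low in either resting group, since resting Nelfb KO had 2.52 FPKM of Cxcl1 and 8.64 FPKM of Cxcl2. Cxcl10, which attracts activated T cells, was at 641 FPKM at 1 h and 5.11 FPKM at rest (6.71), and Cxcl3 at 94.1 and 3.31 FPKM (4.46). Of the 10 kept CXC genes 5 were higher and 0 lower, with a median of 0.44 (0.87 with a pseudocount of 0.1, 0.16 with a filter of 1 FPKM); the fifth was Cxcl5, named after its values were seen, at 1.35 FPKM at 1 h and 0.441 FPKM at rest. Cxcl5 was not past the limit against resting Nelfb KO, where it had 0.827 FPKM. Cxcl1 (chr5:90891241-90893115), Cxcl2 (chr5:90903871-90905938), Cxcl3 (chr5:90786103-90789600) and Cxcl5 (chr5:90759360-90761624) lie close together in GRCm38.

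Of the 11 kept CC chemokine genes 7 were higher and 0 lower, with a median of 2.79, or 0.97 when members under the filter are included. Ccl4, which encodes MIP-1β, was at 2716 FPKM at 1 h and 86.3 FPKM in resting WT (4.96). Ccl3, which encodes MIP-1α, was at 1431 FPKM at 1 h and 75.4 FPKM at rest (4.23). The monocyte attractants Ccl7 (260 and 17.2 FPKM) and Ccl2 (442 and 40.5 FPKM) had log2 ratios of 3.85 and 3.42. All 7 were also higher against resting Nelfb KO. Together the kept CC genes summed to 5554 FPKM at 1 h and 596 FPKM in resting WT, and the kept CXC genes to 3354 and 679 FPKM.

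Cytokine genes followed closely, with 13 of 18 kept members higher, 0 lower and a median of 1.86 (3.20 with a pseudocount of 0.1). Il1b, the precursor of interleukin-1β, was at 624 FPKM at 1 h and 3.21 FPKM in resting WT (148-fold, 7.21). Tnfsf9, the ligand of the costimulatory receptor 4-1BB, was at 312 and 2.83 FPKM (6.35). Ifnb1, which encodes interferon-β and has no intron, was at 86.3 FPKM at 1 h and 0.0845 FPKM at rest (6.33), so it was all but absent before LPS. Il6 was at 78.3 and 0.308 FPKM (5.92) and Il1a at 129 and 1.35 FPKM (5.79). Tnf started higher than these, at 34.5 FPKM in resting WT, and was at 1870 FPKM at 1 h (52.7-fold, 5.72). All 13 were higher against resting Nelfb KO too, with values there of 0.0308 FPKM for Ifnb1, 2.83 FPKM for Il1b and 28.9 FPKM for Tnf. The kept cytokine genes summed to 3243 FPKM at 1 h and 144 FPKM at rest.

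The course over rest, 0.5 h and 1 h differed from gene to gene. Il1b had 3.21, 20.6 and 624 FPKM, and Ifnb1 had 0.0845, 1.44 and 86.3 FPKM, so most of the level at 1 h came after 0.5 h. Egr1, a zinc finger factor induced by MAP kinases, had 2.41, 79.6 and 231 FPKM, with a log2 ratio of 4.56 at 0.5 h, and Cxcl1 (3.48), Cxcl2 (3.58) and Tnf (3.09) also had high ratios by then. Egr2, another gene of the Egr family, had 1.51, 5.20 and 45.0 FPKM and Maff 1.61, 3.43 and 52.5 FPKM, so most of their level too came after 0.5 h. Fos had 35.3, 160 and 124 FPKM and was thus, unlike the other higher genes in the plot of levels, above its 1 h value at 0.5 h. Over all kept genes 90 were higher (0.799%) and 500 lower (4.44%) at 0.5 h than at rest, and 397 were higher (3.53%) and 137 lower (1.22%) at 1 h than at 0.5 h. These comparisons share groups with the one of 1 h against rest. The 20 largest rises among genes of at least 300 nt above 0 in both groups, a set taken after the values were seen, had log2 ratios of 4.33 to 7.31, and all 20 had more FPKM at 1 h than at 0.5 h.

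**Figure D2:**
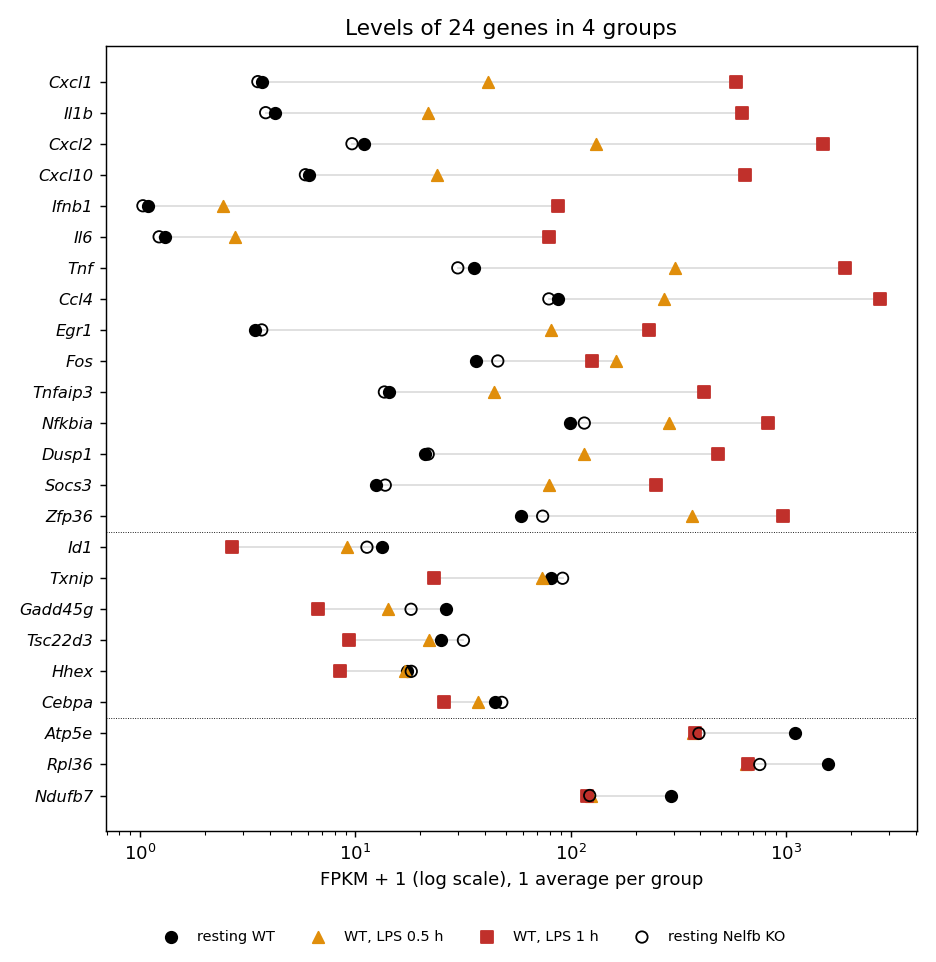
FPKM + 1 (log scale, horizontal) of 24 genes in resting WT, WT after 0.5 h, WT after 1 h and resting Nelfb KO BMDM, 1 point per group average. In the upper block the 1 h squares lie to the right of both resting circles, in the middle block to the left of them, and in the lower block resting WT alone lies to the right (Atp5e at 1096 FPKM against 368, 375 and 392 FPKM in the others).

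Of the 17 kept genes of the Egr, Nr4a and other early response families 12 were higher and 0 lower, with a median of 2.21, or 1.12 with no filter. Besides Egr1 (231 FPKM at 1 h and 2.41 FPKM at rest, 6.09) these included Egr2 (45.0 and 1.51 FPKM, 4.20), the nuclear receptor gene Nr4a1 (61.6 and 4.67 FPKM, 3.47) and Egr3 (10.3 and 0.349 FPKM, 3.07). Of 12 AP-1 genes 6 were higher and 0 lower. Maff, a small MAF protein, was at 52.5 FPKM at 1 h and 1.61 FPKM at rest (4.36), Junb at 377 and 69.1 FPKM (2.43), Jun at 75.5 and 19.6 FPKM (1.89) and Fos at 124 and 35.3 FPKM (1.79). Csrnp1, a nuclear factor, was at 123 and 5.15 FPKM (4.33).

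Lists named after inhibitors of the response leaned upwards alongside its effectors, though not every listed member need act as an inhibitor. Of 14 kept genes of NF-kB inhibitors and the A20 system 9 were higher and 0 lower, with a median of 1.29. Tnfaip3, the ubiquitin-editing inhibitor A20, was at 416 FPKM at 1 h and 13.3 FPKM at rest (4.87). Nfkbia, which encodes IκBα, was at 823 and 98.4 FPKM (3.05), Nfkbiz at 368 and 50.5 FPKM (2.84) and Nfkbie at 55.8 and 9.61 FPKM (2.42). Of 11 genes of NF-kB subunits and IKK kinases 2 were higher (18.2%, background 4.62%), Rel (35.0 and 5.65 FPKM, 2.44) and Nfkb2 (56.8 and 33.3 FPKM, 0.75); Nfkb1 had 48.5 FPKM at 1 h and 34.2 FPKM at rest (0.49), and Rela 53.2 and 37.9 FPKM (0.48). Against resting Nelfb KO 4 of the 11 were higher, Rela (0.74) and, named after its values were seen, Relb (0.71) among them.

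Of 9 kept MAP kinase phosphatase genes 6 were higher and 0 lower (median 1.37, or 2.28 with a pseudocount of 0.1). Dusp1, which switches off p38 and JNK, was at 480 FPKM at 1 h and 19.9 FPKM at rest (4.52), Dusp2 at 92.0 and 5.42 FPKM (3.86), Dusp5 at 38.6 and 3.26 FPKM (3.21) and Dusp4 at 38 and 7.75 FPKM (2.15). Of 15 SOCS and other signal inhibitor genes 11 were higher and 0 lower (median 1.04). Socs3, an inhibitor of cytokine receptor signalling, was at 249 and 11.4 FPKM (4.33). Il10, the anti-inflammatory cytokine, was at 107 FPKM at 1 h and 8.84 FPKM at rest (3.45), with 9.76 FPKM in resting Nelfb KO, and the co-factor gene Cited2 was at 142 and 24.1 FPKM (2.51). The ubiquitin ligase gene Peli1 was at 37.7 and 10.6 FPKM (1.74).

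Of 14 kept regulators of mRNA decay 5 were higher and 0 lower. Zfp36 encodes tristetraprolin, which binds AU-rich elements in the 3′ untranslated region (UTR) and directs messages to decay. It was at 966 FPKM at 1 h and 58.0 FPKM at rest (4.04), with 73.0 FPKM in resting Nelfb KO. Zc3h12c was at 44.7 and 6.04 FPKM (2.70), its relative Zfp36l1 at 80.7 and 28.4 FPKM (1.48) and Zc3h12a, the RNase Regnase-1, at 73.0 and 41.2 FPKM (0.81). The fifth, named after its values were seen, was Rc3h2 at 5.67 and 3.39 FPKM.

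The AU-rich nonamer ATTTATTTA was searched, on the sense strand, in the 3′ UTR of the longest protein-coding transcript (GENCODE M21, GRCm38). It was chosen after the data were seen. It was present in 9 of 45 genes higher by 8-fold or more with such a UTR (20%), in 14.7% of all higher genes and in 6.33% of all kept genes, against 1.68% of the genes lower against both resting groups. The first group had 0.367 matches per kb of UTR and all kept genes 0.0530 matches per kb. The 30 bases with the most matches are shown for the 5 strongest rises that have one, with the nonamers in capitals, on the gene's strand: Cxcl1 at chr5:90892606-90892635, Il1b at chr2:129364800-129364829, Cxcl2 at chr5:90905323-90905352, Tnf at chr17:35199674-35199703 and Ptgs2 at chr1:150105793-150105822.
Cxcl1: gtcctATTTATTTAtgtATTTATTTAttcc
Il1b: tacctATTTATTTAtgtatttattgattgg
Cxcl2: cacttATTTATTTAtctatgtATTTATTTA
Tnf: ttattATTTATTTAttATTTATTTAtttgc
Ptgs2: accatATTTATTTATTTAtgtgaagaattt
These windows hold 2 nonamers in Cxcl1, Cxcl2, Tnf and Ptgs2 and 1 in Il1b, and the whole UTR of Cxcl2 held 4.

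Some receptors and adaptors of the pathway were higher. Of 14 kept Toll-like receptor and co-receptor genes 2 were higher (14.3%, background 4.62%) and 0 lower. These were Tlr2, the receptor of bacterial lipoproteins, at 372 FPKM at 1 h and 85.0 FPKM at rest (2.11), and Cd14 at 1209 and 431 FPKM (1.49). Of 16 adaptor and kinase genes 3 were higher (18.8%) and 1 was lower (6.25%, background 6.67%). Traf1 was at 13.5 and 3.21 FPKM (1.78), Ticam1, which encodes TRIF, at 20.4 and 9.30 FPKM (1.06) and the kinase gene Irak2 at 41.8 and 20.8 FPKM (0.98). The lower one, Tab1, was at 4.91 FPKM at 1 h and 8.56 FPKM in resting WT but 5.26 FPKM in resting Nelfb KO. Of 7 interferon regulatory factor genes only Irf1 (147 and 22.5 FPKM, 2.66) was higher (14.3%, background 4.62%).

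Of 22 interferon-stimulated genes 11 were higher at 1 h and 1 was lower (4.55%, background 6.67%), with a median of 0.55. The fall, named after its values were seen, was that of Stat2 (12.3 and 19.8 FPKM). Against resting Nelfb KO 0 of the 22 were lower. Gbp5, a guanylate-binding protein, was at 27.2 FPKM at 1 h and 1.42 FPKM at rest (3.54). The antiviral genes Rsad2 (139 and 28.3 FPKM), Ifit1 (132 and 28.4 FPKM) and Oasl1 (63.1 and 13.1 FPKM) had log2 ratios of 2.26, 2.18 and 2.18. At 0.5 h their log2 ratios to rest were 0.03, -0.08 and -0.23. Against resting Nelfb KO 16 of the 22 were higher (median 1), and the list summed to 1119 FPKM at 1 h, 597 FPKM in resting WT and only 382 FPKM in resting Nelfb KO, so the resting groups themselves differed here.

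Other effector groups also leaned upwards. Of 13 kept costimulatory and adhesion genes 8 were higher and 0 lower, among them Cd69 (55.3 FPKM at 1 h and 5.35 FPKM at rest, 3.15), the maturation marker Cd83 (154 and 23.6 FPKM, 2.66), the integrin ligand Icam1 (157 and 43.7 FPKM, 1.82) and Icosl (14.3 and 3.50 FPKM, 1.76). Of 13 late effector genes 7 were higher and 0 lower, led by Irg1, which makes itaconate, at 930 and 122 FPKM (2.92). Marcksl1 was at 746 and 143 FPKM (2.37) and Plaur, the urokinase receptor, at 95.6 and 40.8 FPKM (1.21). Of these 7, 5 were higher against both resting groups, and 1 member of the list was lower against resting Nelfb KO (7.69%, background 2.58%). The median was 0.83 for the costimulatory list and 0.85 for the late list. With no filter these were 0.67 and 0.25.

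Of 15 prostaglandin and leukotriene genes 2 were higher (13.3%, background 4.62%) and 1 was lower (6.67%, background 6.67%). Ptgs2, the inducible cyclooxygenase COX-2, was at 83.7 FPKM at 1 h and 0.763 FPKM at rest (5.59), and the prostaglandin E2 receptor gene Ptger4 was at 27.6 and 7.55 FPKM (1.74). Ltc4s was lower against resting WT (8.09 and 15.2 FPKM) but had 5.80 FPKM in resting Nelfb KO. Of 18 chemoattractant and chemokine receptor genes 5 were higher and 0 lower: Ccrl2, which presents chemerin, at 399 and 13.9 FPKM (4.75), the complement receptor gene C5ar1 at 458 and 155 FPKM (1.56), Ccr3, Fpr2 and, named after its values were seen, Fpr1. Only Ccrl2 and C5ar1 were higher against resting Nelfb KO as well. Of 17 Fc and scavenger receptor genes 2 were higher (11.8%, background 4.62%), the lectin gene Clec4e (189 and 31.5 FPKM, 2.55) and Olr1 (12.3 and 0.535 FPKM, 3.12).

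Survival and stress genes were mixed. Of 18 kept BCL2 family and apoptosis genes 8 were higher (44.4%, background 4.62%), 6 of them against both resting groups. Among the higher genes were the caspase-8 inhibitor gene Cflar (122 FPKM at 1 h and 25.0 FPKM at rest, 2.24), Pmaip1 (23.5 and 4.51 FPKM, 2.15), Birc3 (83.8 and 25.7 FPKM, 1.67) and Bcl2a1a (180 and 70.7 FPKM, 1.34), whose reads can be shared with near-identical copies. The 2 lower ones (11.1%, background 6.67%), named after their values were seen, were Bax and Bmf. Bmf (1.09 and 3.03 FPKM) was lower against both resting groups, and Bax (156 and 241 FPKM) was at 137 FPKM in resting Nelfb KO. Of 14 p53 target and Gadd45 genes 9 were higher (64.3%, background 4.62%), with a median of 1.44. Ppp1r15a, which encodes the phosphatase subunit GADD34 of the stress response, was at 409 and 16.4 FPKM (4.55), Phlda1 at 37.6 and 2.78 FPKM (3.35) and Plk2 at 139 and 15.9 FPKM (3.05). Within the Gadd45 family Gadd45a (37.7 and 8.12 FPKM) and Gadd45b (85.9 and 22.2 FPKM) were higher while Gadd45g (5.73 and 25.2 FPKM) was lower; the first pair was named after its values were seen, as was the other lower member, Phlda3 (7.58 and 11.9 FPKM), which had 6.26 FPKM in resting Nelfb KO.

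Of 16 heat shock protein genes Hspa1a (4.01 FPKM at 1 h and 0.639 FPKM at rest) and its near-identical copy Hspa1b (4.37 and 0.749 FPKM) were higher (12.5%, background 4.62%). Hspe1 was lower (6.25%, background 6.67%). Of 19 sterol genes 5 were higher and 0 lower, among them Insig1 (85.8 and 35.7 FPKM, 1.24), which was also higher against resting Nelfb KO. Of 22 glycolysis and hypoxia genes only Vegfa was higher (4.55%, background 4.62%), at 53.6 FPKM at 1 h and 25.0 FPKM at rest. It was at 42.9 FPKM in resting Nelfb KO. No member of the 18 lysosomal, 6 MHC class II or 15 common reference genes was higher (background 4.62%) or lower (background 6.67%). At these shares lists this short would hold few calls in any case. Of 48 genes that the paper names as induced more strongly without NELF, 47 were higher at 1 h in WT, with a median of 3.66; the study picked those genes from the same libraries, so their count is no independent evidence.

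**Figure D3:**
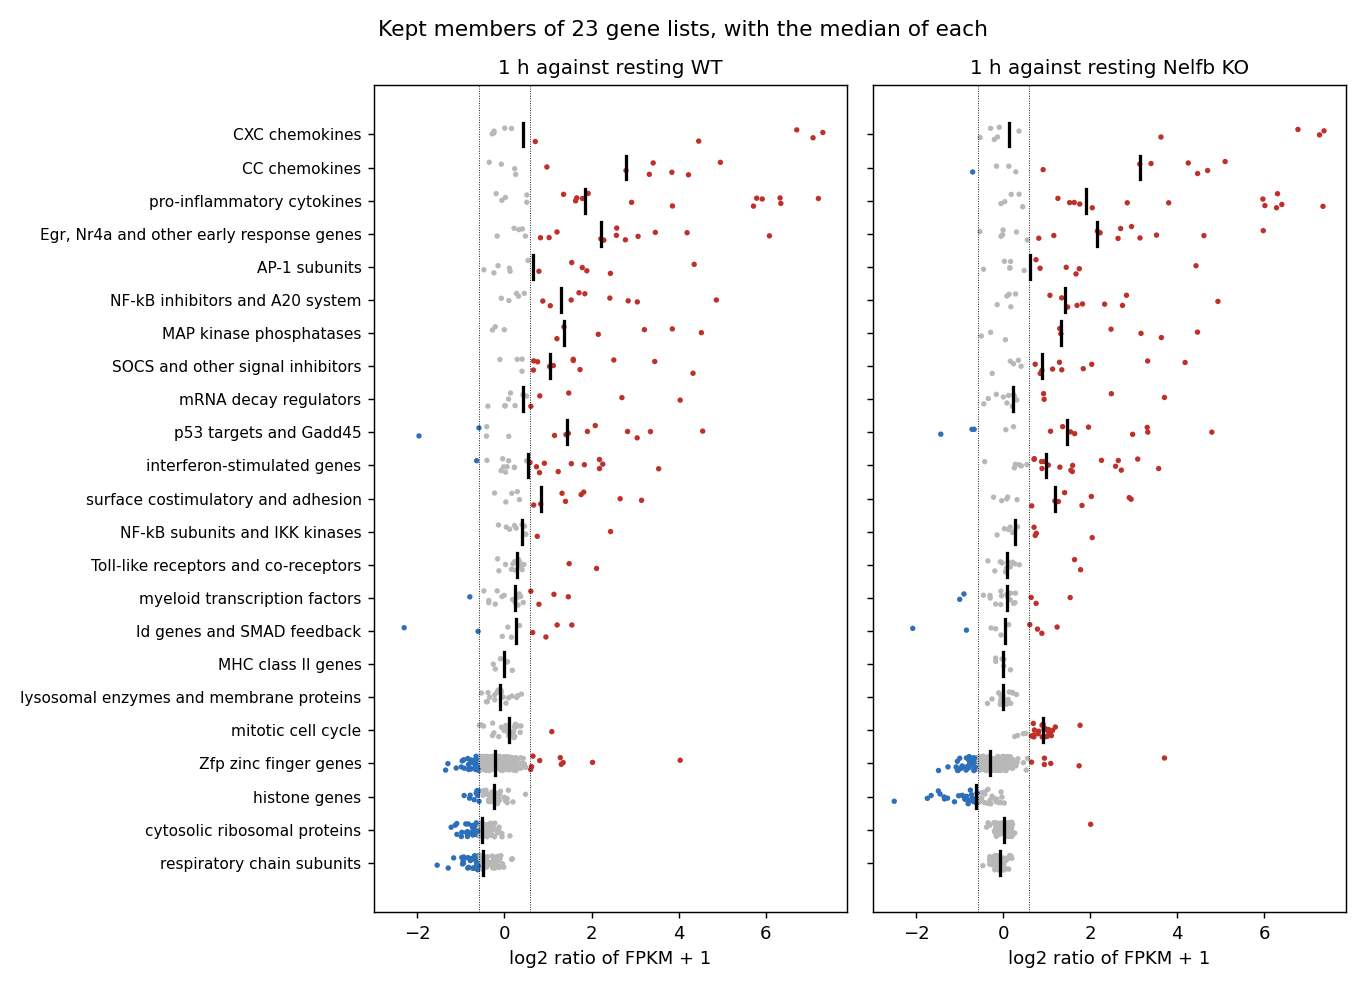
Log2 ratio of FPKM + 1 of each kept member of 23 gene lists at 1 h, against resting WT (left) and against resting Nelfb KO (right), with a bar at the median, dotted lines at the limits, and higher genes in red and lower genes in blue. Chemokine, cytokine and early response lists lie to the right in both panels, whereas ribosomal protein and respiratory chain genes lie to the left only against resting WT (medians -0.52 and -0.49, against 0.02 and -0.06).

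The largest ratios of all belonged to small RNA genes, for most of which no fold can be given. Of the 20 largest rises 16 were listed at 0 in resting WT, and all 20 of the largest falls were listed at 0 at 1 h. Mir7649 was listed at 0 at 1 h, at 14046 FPKM in resting WT, and at 8681 FPKM in resting Nelfb KO, and Snord99 at 3857 FPKM at 1 h and at 0 in the other 4 groups. Rn45s, the ribosomal RNA precursor, was at 1048 FPKM at 1 h and 1469 FPKM in resting Nelfb KO but listed at 0 in resting WT. The libraries were made from polyadenylated RNA, and a gene of under 300 nt is given many FPKM for few fragments. The 127 kept genes shorter than 300 nt held 39 of the rises and 31 of the falls.

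Falls depended on transcript length and on the reference. Across the 11176 kept genes with a length, which are not independent, the log2 ratio at 1 h against resting WT went with the length of the longest transcript (Spearman's rho 0.501). It was 0.296 with the median transcript length of each gene and 0.292 with no filter on level. Split into 10 classes by length, the median ratio was -0.36 in the class of shortest transcripts (median length 838 nt) and 0.23 in that of the longest (7796.5 nt). Of the shortest 1118 genes 307 were lower (27.5%), and of the longest 1118 genes 4 were lower (0.358%). Against resting Nelfb KO rho was 0.141, the medians were -0.04 and 0.09, and 75 and 10 genes were lower. At 0.5 h against resting WT rho was 0.617, whereas the median ratio of 1 h to 0.5 h lay between -0.01 and 0.03 in each length class. Resting Nelfb KO against resting WT gave -0.33 in the shortest class and 0.15 in the longest. The trend with length was therefore present wherever resting WT was the reference, and its source was not tested.

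**Figure D4:**
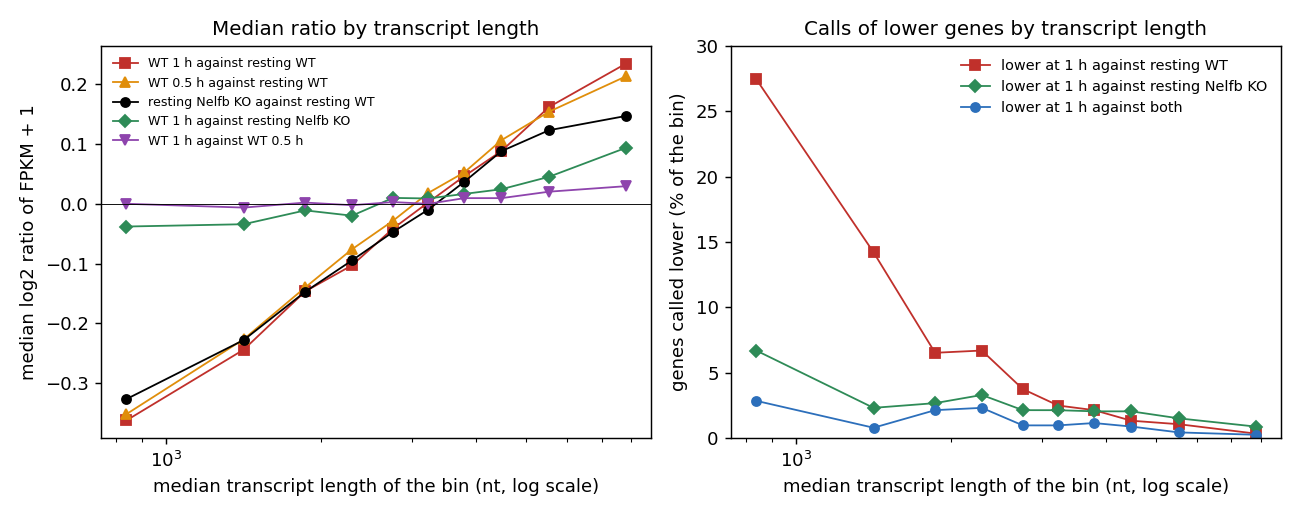
Left, median log2 ratio of FPKM + 1 in 10 classes of transcript length (horizontal axis, median length in nt, log scale) for 5 pairs of groups; right, percentage of genes called lower at 1 h against resting WT, against resting Nelfb KO and against both. The 3 lines with resting WT as reference climb with length, from -0.36 to 0.23 for WT at 1 h, the others lie between -0.04 and 0.09, and the share of lower genes in the shortest class is 27.5% against resting WT and 6.71% against resting Nelfb KO.

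Genes of the ribosome and the respiratory chain, which have short transcripts, were part of this. Of 83 kept cytosolic ribosomal protein genes 31 were lower against resting WT (37.3%, background 6.67%) and 0 against both resting groups (background 1.30%). Their medians were -0.52 and 0.02 against the 2 references. Rpl36 was at 665 FPKM at 1 h and 1555 FPKM in resting WT, but at 652 FPKM at 0.5 h, and Nelfb KO had 753 FPKM at rest. Of 79 respiratory chain genes 28 were lower against resting WT (35.4%) and 0 against both. With the trend over length removed 11 ribosomal protein and 14 respiratory chain genes were lower against resting WT. Of the 11176 kept genes with a length, 393 were lower at that setting. Atp5e, the epsilon subunit of ATP synthase, was at 375 FPKM at 1 h and 1096 FPKM in resting WT, yet at 368 FPKM at 0.5 h and 392 FPKM in resting Nelfb KO. Ndufb7 of complex I was at 118 and 290 FPKM, with 124 FPKM at 0.5 h and 121 FPKM in resting Nelfb KO. In these genes resting WT was the group that stood apart. Of 77 mitochondrial ribosomal protein genes 24 (31.2%), and of 47 proteasome genes 7 (14.9%), were lower against resting WT (background 6.67%). Against both resting groups 0 of either were lower (background 1.30%). Nelfe followed the same course, at 19.9 FPKM at 1 h, 33.7 FPKM in resting WT, 19.6 FPKM at 0.5 h and 19.5 FPKM in resting Nelfb KO. Of the 17 kept genes of NELF, DSIF and P-TEFb, Nelfe and Supt4a were lower (11.8%, background 6.67%). Higher were Ell2, Ccnt1 and Aff4 (17.6%, background 4.62%), of which only Ell2 (71.2 and 37.5 FPKM) was higher against both. Supt4a was named after its values were seen. In all, the 605 genes lower only against resting WT had a median log2 ratio of -0.72 against resting WT, -0.12 against resting Nelfb KO and, already at 0.5 h, -0.67. Their longest transcripts had a median of 1223 nt.

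The 146 genes lower against both resting groups were different in length and level. Their median transcript was 2194 nt, their median span 5.03 kb with 3 exons, and their median level 2.09 FPKM at 1 h and 6.04 FPKM in resting WT. Their median log2 ratio against resting WT was -0.82 at 1 h, which the choice of genes fixes in part, and -0.21 at 0.5 h. Less FPKM at 1 h than at 0.5 h was found in 139 of them, which the same choice favours. The 10 largest falls by this measure, named by the rule, were all small RNA genes listed at 0 at 1 h, such as Mir7649. The genes named next were therefore picked after their values were seen, as the 20 largest with transcripts of at least 300 nt and values above 0.

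Id1, an inhibitor of DNA binding downstream of BMP signals, had the largest such fall, at 1.68 FPKM at 1 h against 12.3 FPKM in resting WT (log2 ratio -2.30) and 10.3 FPKM in resting Nelfb KO (-2.07). Its values over rest, 0.5 h and 1 h in WT were 12.3, 8.10 and 1.68 FPKM. Its relatives went the other way: Id2 was at 491 FPKM at 1 h and 254 FPKM in resting WT, and Id3, named after its values were seen, at 196 and 125 FPKM. Of the 10 kept Id and SMAD feedback genes 4 were higher, the others being the SMAD repressor genes Skil (100.2 and 33.6 FPKM) and Tgif1 (134 and 57.4 FPKM), and 2 were lower, Id1 and Smad7 (0.978 and 2.01 FPKM). Smad7 was also named after its values were seen.

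Txnip, which binds thioredoxin and limits glucose uptake, was at 22.3 FPKM at 1 h against 80.3 FPKM in resting WT (-1.81), and resting Nelfb KO had 90.6 FPKM (-1.98). At 0.5 h it was still at 72.6 FPKM. Tsc22d3, the glucocorticoid-induced leucine zipper GILZ, was at 8.33 FPKM at 1 h, against 24.0 FPKM (resting WT) and 30.7 FPKM (resting Nelfb KO). Gadd45g was at 5.73 FPKM at 1 h, against 25.2 FPKM (resting WT) and 17.1 FPKM (resting Nelfb KO), and the lipase inhibitor gene Angptl4 was at 2.69 FPKM, against 9.37 and 9.16 FPKM. Each of these lay below all other groups at 1 h.

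Transcription factor genes were among the falls. Hhex, a homeobox factor of blood cells, was at 7.50 FPKM at 1 h, against 16.4 FPKM (resting WT) and 17.2 FPKM (resting Nelfb KO), and had 15.9 FPKM at 0.5 h. Cebpa, a myeloid differentiation factor, was at 24.7 FPKM at 1 h, against 43.5 and 46.8 FPKM (-0.80 and -0.90). Of the 19 kept myeloid transcription factors Cebpa was the only one lower (5.26%, background 6.67%). Ets2 (121 and 43.0 FPKM), Tfec (21.2 and 9.09 FPKM), Zeb2 (84.6 and 48.4 FPKM) and, named after its values were seen, Bhlhe40 were higher. Spi1, which encodes PU.1, had 279 FPKM at 1 h and 313 FPKM in resting WT (-0.17). Other falls of this kind were 2810008D09Rik (1.90 FPKM at 1 h, against 12.9 FPKM in resting WT), Osgin1, Rhov, Fam212a, Sertad3, Armc7, Rsrp1, AI467606, Alkbh4 and the neighbouring GSK3-binding genes Frat1 and Frat2, with log2 ratios of -2.26 to -0.98 against resting WT.

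Zinc finger genes were frequent among these falls. Of the 271 kept genes whose symbol starts with Zfp, 33 were lower and 9 higher against resting WT (12.2% lower, background 6.67%; 88 lower with a pseudocount of 0.1, 15 at a limit of 0.6 and 3 at 2-fold), 53 were lower against resting Nelfb KO (19.6%, background 2.58%) and 26 were lower against both (9.59%, background 1.30%). They were 17.8% of the genes lower against both and 2.41% of the kept genes. Zfp472 was at 1.41 FPKM at 1 h, against 5.15 FPKM (resting WT) and 5.73 FPKM (resting Nelfb KO), with 5.51 FPKM at 0.5 h. Zfp87 was at 1.60 FPKM, against 4.61 and 5.25 FPKM, and the related Zkscan14 at 1.03 FPKM, against 4.58 and 4.51 FPKM. The list median was 0.10 at 0.5 h and -0.21 at 1 h against resting WT (-0.35 with a pseudocount of 0.1). Of the 271, 36 were lower at 1 h than at 0.5 h (background 1.22%), with a list median of -0.27. The exceptions that were higher at 1 h included Zfp36, which belongs to another zinc finger family, Zfp131 (30.7 and 6.81 FPKM) and Zfp800 (13.1 and 4.54 FPKM). Zfp transcripts were not short, with a median of 3437 nt.

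**Figure D5:**
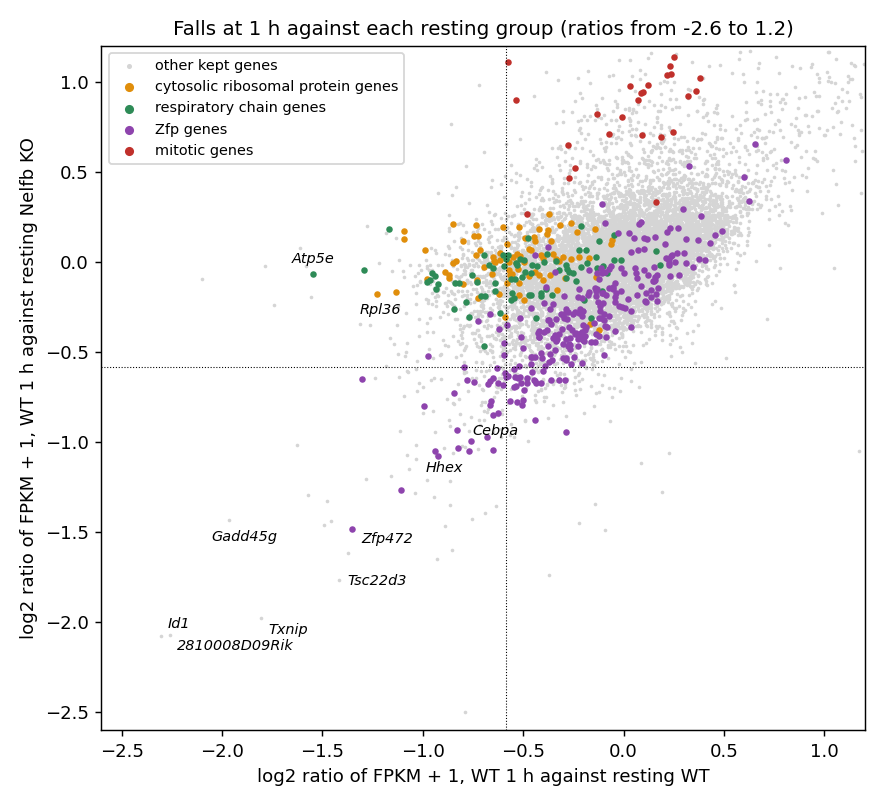
Log2 ratio of FPKM + 1 at 1 h against resting WT (horizontal) and against resting Nelfb KO (vertical), 1 point per kept gene above 0 in the 3 groups with both ratios in the range drawn; dotted lines mark the lower limit. Ribosomal protein and respiratory chain genes spread to the left at a height near 0, 26 Zfp genes lie below and to the left of both lines, and Id1 and Txnip lie in the lower left corner.

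Cell cycle genes lay close to resting WT at 1 h and above resting Nelfb KO. Of 27 mitotic genes only Mki67 (16.4 and 7.21 FPKM) was higher at 1 h against resting WT (3.70%, background 4.62%), with a list median of 0.10. Against resting Nelfb KO 23 were higher (background 6.08%, median 0.92). Of 25 replication genes 0 were higher or lower against resting WT (median -0.15) and 17 were higher against resting Nelfb KO (median 0.71). The mitotic list summed to 387 FPKM at 1 h, 421 FPKM in resting WT and, lower than either, 191 FPKM in resting Nelfb KO. Of 48 kept histone genes 10 were lower against resting WT (20.8%, background 6.67%), 26 against resting Nelfb KO (54.2%, background 2.58%) and 5 against both (10.4%, background 1.30%; H2afj, Hist1h2ai, Hist1h2an, Hist1h3h and Hist2h2aa1, listed after their values were seen). Histone transcripts are short, with a median of 750.5 nt, and in the class of shortest transcripts 27.5% of genes were lower against resting WT. With the trend over length removed 1 histone gene was, out of 393 lower genes in all. The libraries were made from polyadenylated RNA, so histone RNA without a poly(A) tail can be missed. Hist2h2aa1 was at 6.02 FPKM at 1 h, 11.1 FPKM in resting WT but 38.7 FPKM in resting Nelfb KO. For these 3 lists the ratio to Nelfb KO, taken alone, holds the difference in genotype along with that of LPS. The sums of all 3 lists already differed between untreated WT and untreated KO cells. Replication genes summed to 385 FPKM in untreated KO cells, against 626 FPKM (untreated WT) and 675 FPKM (WT at 1 h). For histone genes these sums were 2415, 1811 and 1780 FPKM. The source of the differences between the untreated cells was not tested.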

How the data were processed

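Polyadenylated RNA of BMDM was sequenced by the study. The submitters' processing notes name CASAVA 1.8, TopHat2 2.1.0, Cufflinks 2.2.1 and mm10, and the study's methods state that only uniquely mapped reads were used. FPKM, calculated by the authors, are deposited as a single average for each gene and group of 3 libraries; the depth of each library is unknown. Columns with the authors' own comparisons (a ratio, a p-value and a q-value) were not used. Where group columns recur they differ in 17 genes, and the first occurrence was taken. Not everything in the table is reported here.

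Genes averaging 0.5 FPKM or more across 5 groups were kept. The 1 h group is among these 5, so a gene near 0 at rest can be kept through its rise alone. Log2 ratios took a pseudocount of 1 FPKM, which understates changes of low genes. Since only group averages were at hand, no model across genes was fitted and no test was made. Named by rule were the 20 largest rises and falls, the 10 largest falls against both resting groups, and in each list up to 4 members by the size of their ratio, with Nelfb and Spi1. Named after the values were seen were the 20 largest of each kind among genes of at least 300 nt and above 0, the genes at the limits, and members of counts of 5 or fewer. The comparison and its 39 gene lists were chosen with earlier results of these data known.

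Lengths and positions came from GENCODE M21 (99.3% of kept genes, 450 of them through another symbol) and promoters from RefSeq (GRCm38.p6). Calls and the removal of the length trend were tested on simulated data. Python 3.11.15, numpy 2.4.6 and pandas 2.3.3 were used. Alternatives were the pseudocount, the filter, the scaling, the limit, the repeated columns, genes at 0, transcript length and the resting reference.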

Additional observations from a re-analysis of the deposited data

How the results depend on the processing

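With a limit of 2-fold, 300 genes were higher and 104 lower at 1 h than in resting WT, and 245 were higher and 32 lower against both resting groups. With limits of 1.4 and 0.6, 705 were higher, 362 lower and 70 lower against both. With the trend over transcript length removed 488 were higher and 393 lower, and with resting Nelfb KO as reference 291. A pseudocount of 0.1 FPKM gave 315 genes lower against both; the cause was not tested. Spearman's rho of length and log2 ratio was 0.29 with no filter, 0.14 against resting Nelfb KO and 0.30 with the median transcript length of each gene in place of the longest. Of 191 named genes above 0 in both groups, 147 were past the limit against resting WT. Sign changes among named genes not past the limit were not counted. Of the 147, 9 changed sign against resting Nelfb KO: Hspe1 (0.052), Ltc4s (0.42), Ndufa2 (0.18), Nelfe (0.024), Psmb10 (0.045), Psmb5 (0.18), Rpl38 (0.13), Rpph1 (0.075) and Rps19 (0.18). A further 27 were no longer past the limit there, against 15 with the length trend removed, 30 at 2-fold and 8 at 1.4 and 0.6. No named gene lost its call under the other alternatives, which were the pseudocount, both filters (1 gene fell under that of 1 FPKM), both scalings, the repeated columns, leaving out genes at 0 and leaving out transcripts under 300 nt; the last was chosen after seeing the data. The median log2 ratio of all kept genes was -0.03 with groups scaled to the same median and -0.02 with quantile normalization, against -0.02 as deposited. Of the 39 list medians, 27 moved by 0.1 or more against resting Nelfb KO, 16 with the length trend removed, 7 with no filter, 7 with a pseudocount of 0.1, 4 with a filter of 1 FPKM and 4 with quantile normalization. No paired analysis was possible because the table gives group averages only, and leaving out libraries was not run for the same reason. Without values per library no difference could be set against the spread between replicates, and the depth, unknown here, limits genes of low level most.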
